A study of Mus musculus with 6 samples.

Results

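Platelet alpha-granule cargo was followed through 10 genes chosen by symbol from the 24410 symbols of an expression table: Pf4, Ppbp, Srgn, Thbs1, Selp, Mmrn1, F5, F13a1, Vegfa and Tgfb1. The table holds RNA sequencing of bone marrow-derived cells from mice 5 months old, of the C57BL/6 strain. Wild-type mice gave 3 libraries, called WT 1 to WT 3, and Txnip -/- mice the other 3, called KO 1 to KO 3. In both genotypes, marrow cells lacking mature lineage markers were grown for 3 days in a serum-free expansion medium that was given 10% serum, 100 ng/mL of murine Scf (stem cell factor, the Kit ligand) and 20 ng/mL of mTpo (thrombopoietin). CD41+ cells were then sorted. The labels do not say how the Txnip deletion was made, and they do not say whether the libraries of a genotype came from separate mice or cultures. The p-values below thus rest on the spread among these samples, some of which can be technical.

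Alpha granules are the storage granules that megakaryocytes fill and pass to platelets. Platelets release their chemokines, adhesive proteins, clotting factors and growth factors at a wound. Some cargo is made by the megakaryocyte itself, and some is taken up from plasma. Thioredoxin-interacting protein, the product of Txnip, binds thioredoxin and restrains glucose uptake. The series title asks what it does in megakaryocyte development, and the comparison here asks whether cargo transcripts differ when it is absent.

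Txnip had 112, 228 and 143 FPKM in the WT libraries, in the order of their numbers, and 0, 0.04 and 0 in the KO libraries, as their genotype labels state. FPKM is a level per kilobase of transcript relative to all mapped fragments, so levels of different genes can be set side by side. Megakaryocyte transcripts were present in every library: Itga2b, which encodes CD41, lay between 83.2 and 152 FPKM and Gp9, a platelet glycoprotein, between 17.0 and 32.5. Gp1bb, a partner of Gp9, reached 4.18 FPKM at most. Transcripts of other myeloid cells were abundant in the same libraries, with the granulocyte peroxidase gene Mpo between 782 and 1640 FPKM and the mast cell protease gene Cpa3 between 110 and 369. In such a bulk sample, fewer cells of a type and less RNA per cell cannot be told apart. The estimated depth was lowest in KO 1 (14500000 fragments) and highest in KO 3 (25800000). The members with the lowest levels, Selp, F5 and Mmrn1, rested on an estimated 134 to 712 fragments in each library.

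Cargo transcripts showed no common direction between the genotypes. Of the 10 members, which all had at least 1 FPKM in at least 3 libraries, 5 had a higher mean in KO and 5 a lower one. The median KO minus WT difference was 0.00 on the log2(FPKM + 1) scale, against 0.06 for all 11249 genes tested, of which 63.4% had a higher mean in KO. When each library was rescaled to the same FPKM sum, the median of all genes moved by 0.16 to 0.22 and that of the members to 0.18, with 8 of 10 higher against 86.6% of all genes. WT 2 had the largest sum, at 1131641 FPKM against 715205 (KO 3) to 805730 (KO 2) elsewhere. The RNA genes Rpph1 and Rmrp made up 30.4% of it, against 10.7% (WT 3) to 20.6% (KO 1) elsewhere. With these and ribosomal protein genes left out of the sum, the members' median was 0.08. Leaving out 1 library at a time moved the members' median between -0.15 (without WT 1) and 0.27 (without KO 1). No member passed the adjusted threshold of 0.05 (limma on log2(FPKM + 1), 0 of 10 called in either direction, against 0.0178% of all tested genes). At an unadjusted p under 0.05, 1 of 10 lay in that test (0.676% of all genes), namely Vegfa. That test counts the spread between library numbers as error, so its 0 calls among members say little about changes of the sizes seen here. With the replicate number as a block, the counts were 0 of 10 after adjustment (0.0267% of all genes) and 4 of 10 before it (6.93% of all genes). The 4 were Vegfa, Thbs1 and F13a1, higher in KO, and Mmrn1, lower in KO. The members were chosen with earlier results of these data known, so these counts are no test of the set. Summed megakaryocyte markers, members left out, were 185, 246 and 227 FPKM in WT (numbers 1 to 3). In KO they were 200, 286 and 221, and number 1 was lowest and number 2 highest in both. Of 12 tested, 9 had a higher and 3 a lower mean in KO (median 0.10, 0 called). A pair, here and below, means the WT and KO library of the same number. Pair medians of these markers were 0.17, -0.05 and 0.01, and their part in the cargo values was not tested.

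**Figure D1:**
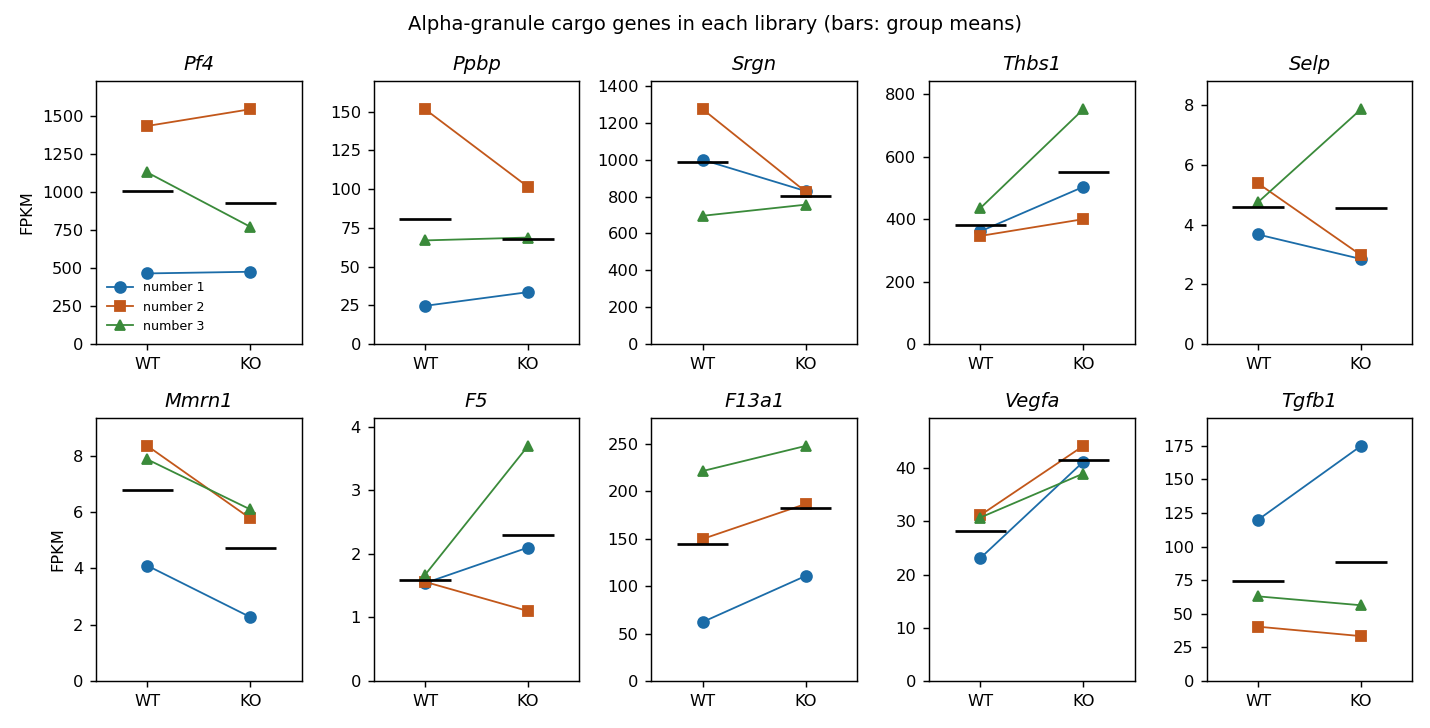
FPKM of each member in each library, with WT on the left and KO on the right of each panel. Lines join libraries of the same number, and black bars are group means (n = 3). Vegfa is the member whose 3 KO libraries, at 39.0 to 44.2 FPKM, all lie above its 3 WT libraries, at 23.1 to 31.2.

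**Figure D2:**
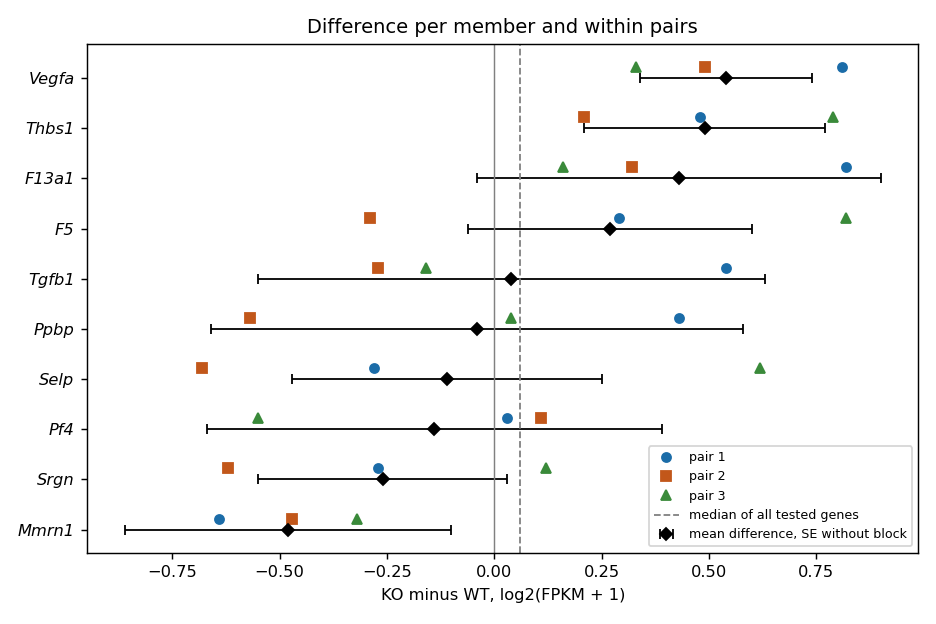
KO minus WT difference of each member on the log2(FPKM + 1) scale. Diamonds with bars are the mean difference and its standard error from limma without the block, coloured points are the 3 pairs, and the dashed line is the median of all tested genes (0.06). The members spread from -0.48 (Mmrn1) to 0.54 (Vegfa).

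Pf4 and Ppbp encode the chemokines platelet factor 4 (CXCL4) and pro-platelet basic protein (CXCL7), the classic secreted markers of the platelet lineage. They are next to each other on mouse chromosome 5, between Cxcl5 and Cxcl3 in the RefSeq order of coding genes (GRCm38.p6). Pf4 lay at 465, 1435 and 1129 FPKM in the WT libraries and 476, 1545 and 772 in the KO libraries (here and below in the order 1, 2, 3). The groups overlapped almost fully, and both libraries of number 1 were the lowest and both of number 2 the highest. The difference was -0.14 (SE 0.53; limma, adjusted p = 1.00), and the pairs differed by 0.03, 0.11 and -0.55. With the block, the SE was 0.18 (limma, adjusted p = 0.897). Ppbp, whose product is cleaved to a neutrophil attractant, lay at 24.7, 151 and 66.9 FPKM in WT and at 33.6, 101 and 68.8 in KO. It showed the same order of numbers in both genotypes, 1 below 3 below 2. Its difference was -0.04 (SE 0.62; limma, adjusted p = 1.00), and with the block the SE was 0.19 (limma, adjusted p = 0.976). Both signs turned with rescaling to a common sum, to 0.04 for Pf4 and 0.14 for Ppbp, and leaving out 1 library moved Pf4 between -0.62 (without WT 1) and 0.26 (without KO 1) and Ppbp between -0.70 (without WT 1) and 0.59 (without WT 2). Pf4 was also above 0 without WT 2 (0.19) and without WT 3 (0.02), and Ppbp without KO 1 (0.39). There were between 9.47 (WT 2) and 18.8 (WT 1) times as many Pf4 as Ppbp transcripts per length, and the KO libraries lay within this range, at 14.2, 15.2 and 11.2.

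The chemokine genes around this pair were at far lower levels. Cxcl2, an attractant of neutrophils made by many activated myeloid cells, was the one of 5 neighbours that passed the filter on low values. It lay at 14.7, 6.81 and 10.8 FPKM in WT and at 37.3, 13.1 and 8.25 in KO, with KO 1 the highest library. The difference was 0.59 (SE 0.50; limma, adjusted p = 1.00). Cxcl1, Cxcl3 and Cxcl5 stayed at or below 1.74 FPKM and Cxcl15 at or below 0.04.

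The 250 bases before the RefSeq start of Pf4 and Ppbp are shown because both genes were lowest in number 1 and highest in number 2. They are given 5′ to 3′ on the plus strand of GRCm38.p6, at chr5:90772185-90772434 for Pf4 and chr5:90768268-90768517 for Ppbp, a build other than the mm9 of the expression table. Capitals mark ETS words (AGGAAG or CGGAAG, or CTTCCT or CTTCCG as their reverse), GATA words (AGATAA or TGATAA or their reverse) and the TATA word TATAAA or its reverse.
Pf4: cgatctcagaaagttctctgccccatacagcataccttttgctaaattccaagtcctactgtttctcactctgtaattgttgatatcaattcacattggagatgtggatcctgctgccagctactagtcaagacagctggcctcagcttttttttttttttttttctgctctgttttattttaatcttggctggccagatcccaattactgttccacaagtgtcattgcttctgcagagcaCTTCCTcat
Ppbp: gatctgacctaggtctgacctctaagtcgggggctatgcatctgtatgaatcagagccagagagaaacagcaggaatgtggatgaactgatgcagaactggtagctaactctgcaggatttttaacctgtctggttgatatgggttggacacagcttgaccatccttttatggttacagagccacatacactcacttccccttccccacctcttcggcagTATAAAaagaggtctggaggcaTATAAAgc
The Pf4 window held 1 ETS word, 9 bases before the start, and the Ppbp window held the TATA word 30 and 8 bases before it. Neither held a GATA word. Among 32851 RefSeq promoter windows of this length, 39.2% held an ETS word, 12.4% the TATA word and 16.6% a GATA word. RefSeq gave 12 such windows for 9 of the 10 members. ETS words were in 7 of the 12, TATA in 2 and GATA in 2, the last belonging to Mmrn1 and Vegfa.

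Srgn encodes serglycin, the granule proteoglycan whose charged sugar chains hold basic proteins such as platelet factor 4; mast cells, granulocytes and other blood cells also make it. The WT libraries held 999, 1273 and 696 FPKM and the KO libraries 829, 826 and 756. The KO libraries lay close together inside the WT range. The SD was 289 FPKM in WT and 41.6 in KO (n = 3 each), and this contrast in spread was not tested. The difference was -0.26 (SE 0.29; limma, adjusted p = 1.00), with pair values of -0.27, -0.62 and 0.12, and without WT 2 it was -0.05. With the block, the SE was 0.18 (limma, adjusted p = 0.809). Summed mast cell and basophil markers ran from 1105 to 1657 FPKM in WT and from 691 to 1510 in KO. Of 11 tested, 9 had a lower mean in KO and 0 passed, and none of the 12 in the table was at 0 in every library. Their pair medians were -0.17, -0.33 and -0.50. Summed neutrophil and granulocyte progenitor markers came to 5882, 7521 and 7217 FPKM in WT and 3905, 4669 and 8897 in KO. Of 12 tested, 9 had a lower mean in KO and 0 passed, and none of the 13 in the table was at 0 in every library. Their pair medians were -0.41, -0.40 and 0.32. The part of either list in the Srgn values was not tested.

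Among 14 enzymes that build glycosaminoglycan chains of the kind serglycin carries, 10 had a higher and 4 a lower mean in KO (median 0.09) and 0 passed. B4galt7, which adds the first galactose of the linker, was the one of the 14 with all KO libraries above all WT libraries (3.32% of all tested genes). It lay at 10.7, 8.64 and 10.3 FPKM in WT and at 12.0, 12.6 and 11.6 in KO, a difference of 0.27 (SE 0.21; limma, adjusted p = 1.00). Xylt2, which starts the chain, was 5.87 ± 1.27 FPKM in WT against 8.10 ± 1.36 in KO (SD, n = 3 for both).

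Thbs1, Selp and Mmrn1 are adhesive cargo. Thbs1 encodes thrombospondin 1, a large matrix protein that binds CD36 and CD47 and can activate latent TGF-beta; monocytes and macrophages make it as well. Thbs1 lay at 361, 346 and 435 FPKM in WT and at 503, 400 and 752 in KO. Each KO library was above the WT library of its number, as in 20.4% of all tested genes, but KO 2 lay below WT 3, so the groups overlapped. The difference was 0.49 (SE 0.28; limma, adjusted p = 1.00), and the pairs gave 0.48, 0.21 and 0.79. Without KO 3 the difference was 0.24. With the block, the SE was 0.16 and the gene still did not pass (limma, adjusted p = 0.683). With the block and pair 2 left out, Thbs1 passed at a difference of 0.63 (limma, adjusted p = 0.00612), in a fit that called 0.836% of all tested genes higher. That fit rests on 2 pairs. With pair 1 or pair 3 left out instead, Thbs1 did not pass (differences of 0.50 and 0.34).

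Selp encodes P-selectin, which sits in the granule membrane and reaches the surface on activation, where it binds the leukocyte ligand encoded by Selplg. Selp lay at 3.67, 5.38 and 4.75 FPKM in WT and at 2.85, 2.98 and 7.86 in KO. The KO group held both the lowest values and the highest, with KO 3 far above KO 1 and KO 2. The difference was -0.11 (SE 0.36; limma, adjusted p = 1.00), and the pairs gave -0.28, -0.68 and 0.62. With the block, the SE was 0.24 (limma, adjusted p = 0.949). Rescaled to a common sum the difference was 0.03, and it was 0.10 without KO 1, 0.07 without KO 2 and -0.50 without KO 3. Mmrn1, multimerin 1, a carrier of factor V in the granule, lay at 4.10, 8.36 and 7.88 FPKM in WT and at 2.27, 5.78 and 6.10 in KO. It was lower in KO in 3 of 3 pairs (-0.64, -0.47 and -0.32), as were 8.68% of all tested genes, although WT 1 lay below KO 2 and KO 3. The difference was -0.48 (SE 0.38, limma, adjusted p = 1.00; with the block SE 0.17, limma, adjusted p = 0.683), and -0.11 without KO 1.

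Endothelium also makes P-selectin and multimerin 1. Its cadherin gene Cdh5 was at most 0.04 FPKM in any library and its VEGF receptor gene Kdr at most 0.26. Others on the list were well above 0: Pecam1, which megakaryocytes share, lay between 63.5 and 96.7 FPKM, Egfl7, a secreted endothelial factor, between 30.6 and 144, Eng between 3.98 and 10.2 and Tie1 between 2.38 and 6.07. Of 12 endothelial markers 6 passed the filter on low values, 2 higher and 4 lower, and none was at 0 in every library. Their summed level, mostly Pecam1 and Egfl7, ran from 124 to 219 FPKM in WT and from 112 to 254 in KO. Their part in the Selp and Mmrn1 values was not tested.

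F5 and F13a1 encode clotting proteins. F5, coagulation factor V, is the cofactor that speeds thrombin formation, and its gene is next to Selp in the RefSeq order of coding genes on chromosome 1 (GRCm38.p6). F5 lay at 1.54, 1.56 and 1.67 FPKM in WT and at 2.10, 1.10 and 3.70 in KO. The WT libraries were almost equal and the KO libraries lay on both sides of them, with an SD of 0.07 FPKM in WT and 1.31 in KO. The difference was 0.27 (SE 0.33; limma, adjusted p = 1.00), and without KO 3 it was -0.02. With the block, the SE was 0.25 (limma, adjusted p = 0.85). F5 shared with Selp its highest value in KO 3, while KO 1 was above WT 1 for F5 and below it for Selp.

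The windows before Selp and F5 are shown as those of the other neighbouring pair, on the plus strand of GRCm38.p6, at chr1:164115014-164115263 and chr1:164151585-164151834, with the same words in capitals.
Selp: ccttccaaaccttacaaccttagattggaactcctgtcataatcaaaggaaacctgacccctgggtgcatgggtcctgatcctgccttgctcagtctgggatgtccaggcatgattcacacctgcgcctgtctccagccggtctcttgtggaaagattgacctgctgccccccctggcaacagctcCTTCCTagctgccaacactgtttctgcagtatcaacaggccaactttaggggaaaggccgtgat
F5: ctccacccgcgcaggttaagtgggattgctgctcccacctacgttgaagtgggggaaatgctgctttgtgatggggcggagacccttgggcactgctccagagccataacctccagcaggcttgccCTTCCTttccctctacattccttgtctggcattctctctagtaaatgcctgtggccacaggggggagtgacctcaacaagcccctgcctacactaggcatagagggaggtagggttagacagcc
Each held 1 ETS word, 64 bases before the start in Selp and 124 in F5, and neither held a GATA or TATA word.

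F13a1 encodes the A subunit of factor XIII, the enzyme that cross-links fibrin, and is made by megakaryocytes and by monocytes and macrophages. F13a1 lay at 62.2, 150 and 222 FPKM in WT and at 111, 187 and 248 in KO. Numbers 1, 2 and 3 stood in the same order in both genotypes, and each KO library was above its WT partner, by 0.82, 0.32 and 0.16, a pattern shared by 20.4% of all tested genes. The difference was 0.43 (SE 0.47, limma, adjusted p = 1.00; with the block SE 0.17, limma, adjusted p = 0.683). Without WT 1 the unpaired difference was -0.08. Summed monocyte and macrophage markers came to 779, 1384 and 1930 FPKM in WT, with 1474, 1230 and 1851 in KO. Most of each sum was Lyz2, which lay between 522 and 1533 FPKM. Of the 16 tested 15 had a higher mean in KO, 0 passed, and none was at 0 in every library. Their pair medians were 0.97, 0.27 and -0.08. Their part in the F13a1 and Thbs1 values was not tested. Csf1r, the receptor that defines the lineage, was 30.8 ± 13.1 FPKM in WT against 45.3 ± 24.3 in KO (SD, n = 3 for both).

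Vegfa and Tgfb1 are the growth factors of the set. Vegfa encodes the main angiogenic factor of the granule and is induced by low oxygen in many cell types. Vegfa lay at 23.1, 31.2 and 30.8 FPKM in WT and at 41.2, 44.2 and 39.0 in KO. It was the 1 member of 10 whose KO libraries all lay above its WT libraries, a pattern found in 3.32% of all tested genes, and no member had all KO libraries below (1.03% of all genes). The mean was 28.3 ± 4.54 FPKM in WT against 41.5 ± 2.61 in KO (SD, n = 3 for both), 1.46-fold higher, and the pairs gave 0.81, 0.49 and 0.33. The difference of 0.54 (SE 0.20) had an unadjusted p = 0.0266 and did not pass (limma, adjusted p = 1.00). An exact two-sided permutation test over the 6 libraries gave p = 0.1, the smallest that 3 against 3 allows. With the block it had the smallest p of the members (SE 0.15, limma, adjusted p = 0.613). With pair 2 left out as well it passed at 0.57 (limma, adjusted p = 0.0479). That fit rests on 2 pairs and called 0.836% of all tested genes higher. With pair 1 or pair 3 left out instead, Vegfa did not pass (differences of 0.41 and 0.65).

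Tgfb1 encodes transforming growth factor beta 1, of which platelets are a main store and which restrains blood stem cells. Tgfb1 lay at 120, 40.4 and 62.9 FPKM in WT and at 175, 33.3 and 56.3 in KO. Both libraries of number 1 were far above the other four, the reverse of the Pf4 and Ppbp order. The difference was 0.04 (SE 0.59; limma, adjusted p = 1.00), and the pairs differed in sign, at 0.54, -0.27 and -0.16. With the block, the SE was 0.18 (limma, adjusted p = 0.976). Without the block, the difference was -0.62 without KO 1, -0.32 without WT 2, -0.01 without WT 3 and 0.55 without KO 2.

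The range of the 3 pair means exceeded the size of the genotype difference in 9 of 10 members, as in 91.3% of all tested genes. Such a range tends to exceed a difference of group means even where pairs do not differ. The count thus cannot rank pairs against genotype. The 3 pair means of a member spanned a median of 0.86 on the log2(FPKM + 1) scale, against 0.55 for all tested genes. The median size of the genotype difference was 0.26 for members and 0.13 for all genes. This scale understates changes of low genes, and neither comparison with all genes was matched for level. A test of the number with genotype in the model, chosen after the data were seen, called 5 of 10 members (limma F test, 35.1% of all tested genes called). These were Ppbp (adjusted p = 0.00122), Tgfb1 (0.00122), Pf4 (0.00203), F13a1 (0.00228) and Mmrn1 (0.00733), each from the limma F test. Pf4, Ppbp, F13a1 and Mmrn1 had their lowest pair mean in number 1, and Tgfb1 its highest. The means of pairs 1, 2 and 3 were 471, 1490 and 950 FPKM for Pf4 and 147, 36.9 and 59.6 for Tgfb1. Libraries of number 3 contained Xist, at 48.1 FPKM in WT 3 and 91.6 in KO 3, and those of numbers 1 and 2 the Y-linked Ddx3y instead, so the sex of the mice moved with the number. What else the number stands for is not given in the labels, and its part in these values cannot be told apart from sex for number 3.

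**Figure D3:**
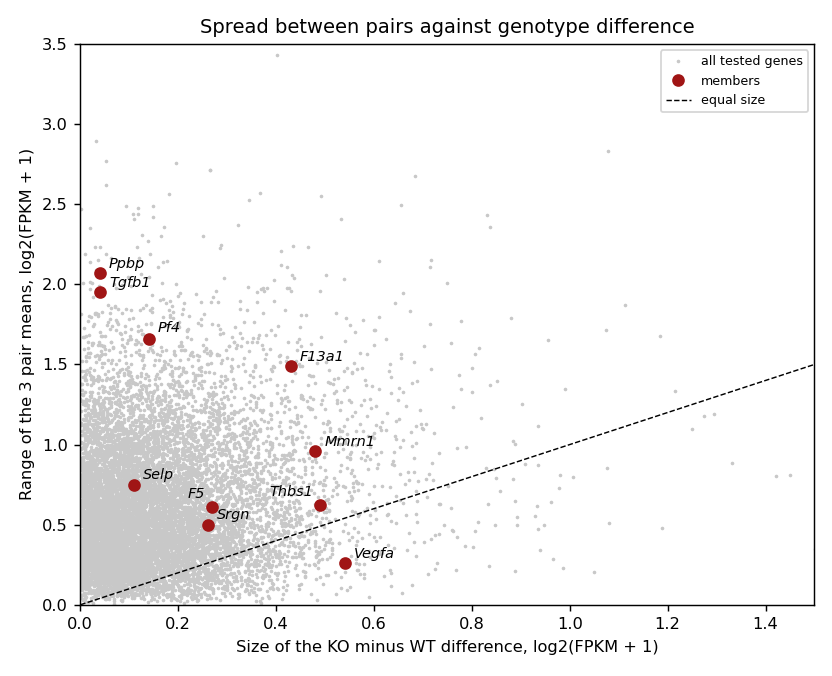
Range of the 3 pair means (vertical) against the size of the KO minus WT difference (horizontal), both on the log2(FPKM + 1) scale, for all tested genes in grey and the 10 members in red; 21 genes lie outside the axes. The members sit above the dashed line of equal size, apart from Vegfa, whose pair means ranged over 0.26 and whose difference was 0.54. Genes tend to lie above this line even where pairs do not differ.

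The summed level of the 10 members was 2065, 3442 and 2656 FPKM in WT and 2177, 3147 and 2709 in KO. The groups overlapped, and number 1 was lowest and number 2 highest in both. Pf4, Srgn and Thbs1 together made up between 83.1% (KO 1) and 88.7% (WT 2) of that sum. The share of Pf4 was 22.5%, 41.7% and 42.5% in WT and 21.9%, 49.1% and 28.5% in KO. Thbs1 took 17.5%, 10.1% and 16.4% in WT and 23.1%, 12.7% and 27.7% in KO, higher in KO in 3 of 3 pairs. Srgn took 48.4%, 37.0% and 26.2% in WT and 38.1%, 26.3% and 27.9% in KO. Such shares do not depend on how libraries are scaled, and a larger share of one member lowers those of the others. Selp, F5 and Mmrn1 each took less than 0.3% in every library.

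**Figure D4:**
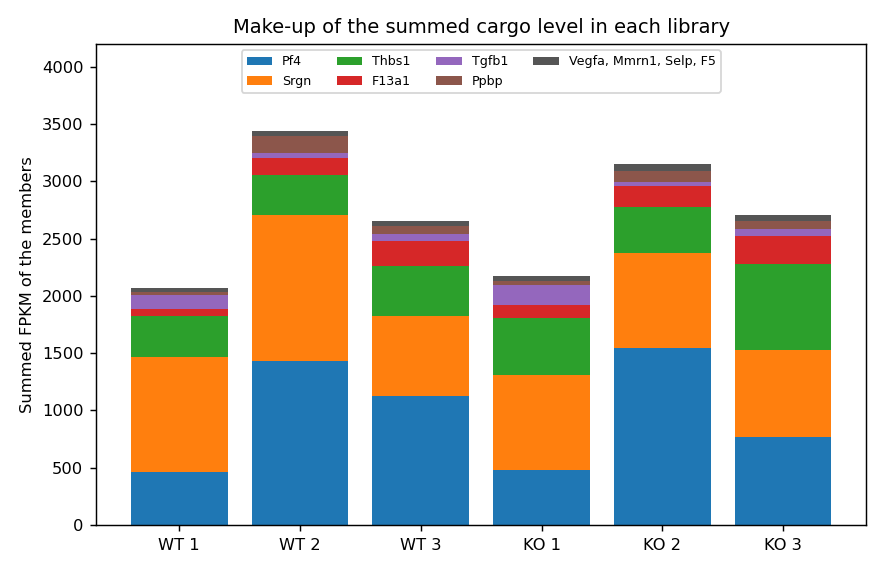
Summed FPKM of the members in each library, split by gene. The summed level runs from 2065 FPKM in WT 1 to 3442 in WT 2, and Pf4, Srgn and Thbs1 fill at least 83.1% of each bar.

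Other cargo genes were followed from a longer list. Of 35 further genes of known alpha-granule proteins 20 passed the filter on low values, 15 higher and 5 lower in KO, with a median of 0.09 against 0.06 for all tested genes (limma, 0 called; 0 with the block). Those of smallest p were Fn1 (fibronectin), at 10.3, 17.6 and 29.5 FPKM in WT and 31.8, 19.4 and 37.4 in KO, and Pdgfb, Ccl5 and Plau. Pdgfb, a platelet growth factor chain, was 0.86 ± 0.37 FPKM in WT against 1.59 ± 0.66 in KO (SD, n = 3 for both). Ccl5, a chemokine of platelets and T cells, was 1.26 ± 1.51 and 3.25 ± 2.94, and the plasminogen activator gene Plau 1.27 ± 0.46 and 1.89 ± 0.55. The fibrinogen gene Fgb, whose protein platelets take up from plasma, and A2m were listed at 0 in every library. Of 13 genes of granule formation and release 9 were higher and 4 lower (median 0.09, 0 called). Vamp8, the release SNARE, was 213 ± 46.2 FPKM in WT against 165 ± 20.4 in KO (SD, n = 3 for both).

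Receptors and partners of the cargo were measured in the same cells. Of 16, 11 passed the filter on low values, 8 higher and 3 lower (median 0.04, 0 called). Cd47, the widely expressed thrombospondin receptor, lay between 190 and 241 FPKM and Selplg, the P-selectin ligand, between 32.3 and 41.8, with overlapping groups. Cd36, another thrombospondin receptor, lay at 3.97, 1.47 and 8.34 FPKM in WT and at 11.3, 1.82 and 13.7 in KO. It was higher in KO in each pair, as were 20.4% of all tested genes, with a difference of 0.72 (SE 0.67; limma, adjusted p = 1.00). Lrp1, an endocytic receptor that binds platelet factor 4, was 7.30 ± 3.83 FPKM in WT against 11.9 ± 8.17 in KO (SD, n = 3 for both). Cxcr2, the receptor of the Ppbp product, stayed between 1.78 and 6.09 FPKM, and Cxcr3, a receptor of platelet factor 4, at or below 0.59. The TGF-beta receptor genes Tgfbr1 and Tgfbr2 lay between 10.8 and 21.7 FPKM, and the VEGF receptor gene Flt1 at or below 0.59.

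TGF-beta response genes, listed for their known induction by the factor or feedback on it, were higher in 9 and lower in 4 of 13 tested (median 0.11, 0 called). Their pair medians were 0.37, -0.13 and -0.06, and the Tgfb1 differences of the same pairs were 0.54, -0.27 and -0.16. A link between these values was not tested. Ltbp3, a binding protein of latent TGF-beta, was the one of the 13 with all KO libraries above all WT libraries (3.32% of all tested genes), at 2.20, 2.67 and 2.51 FPKM in WT and 4.47, 3.09 and 4.68 in KO (difference 0.54, SE 0.25; limma, adjusted p = 1.00). Of 12 megakaryocyte transcription factor genes 7 were higher and 5 lower (median 0.02, 0 called). Zfpm1, the partner of Gata1, was 22.2 ± 8.14 FPKM in WT against 29.5 ± 13.6 in KO (SD, n = 3 for both).

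For 4 members, the genes of most similar course over the 6 libraries were sought among the 8356 or 8357 whose median reached 5 FPKM, by the root mean square difference of their log2(FPKM + 1) values after removing each gene's own mean. Ppbp was nearest to Guca1a (0.133), Prelid2 (0.146) and Treml1 (0.223), the last a receptor stored in platelet alpha granules. Treml1 lay at 4.29, 23.2 and 14.9 FPKM in WT and at 4.65, 22.9 and 13.5 in KO, low in number 1 and high in number 2 like Ppbp. Pf4 was nearest to Prkra (0.139), Tm2d3 (0.161) and Ech1 (0.163), and 156 genes lay within 0.3 of it, 158 within 0.3 of Selp, 13 of Ppbp and 4 of F13a1. Selp was nearest to Rhobtb3 (0.130), Tfec (0.137) and Tefm (0.170), and F13a1 to G0s2 (0.205), Vill (0.257) and Chac1 (0.261). Among the 45 pairs of members, Thbs1 and F5 were closest on this scale (0.16), which compresses low genes; F5 lies under the floor of 5 FPKM, which was not applied to the members. Pf4 and Ppbp differed by 0.33.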

How the data were processed

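The deposited table gives FPKM per gene symbol and library, with 1 column for each of 6 libraries, all used. Per the submitters' processing notes, FastQC, Trimmomatic 0.39, STAR 2.7.0a and RSEM 1.2.31 were used by the authors with build mm9; their roles and settings, the annotation, the read length and any strand setting: not given in the sources used here. Reads shared between genes are estimated by RSEM.

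Groups came from sample titles. Genes reaching 1 FPKM in 3 or more libraries (11249) were tested with limma 3.58.1 (R 4.3.3; eBayes with trend) on log2(FPKM + 1), KO against WT, two-sided, with Benjamini-Hochberg adjustment over all of them and a threshold of 0.05. This scale understates changes of low genes. Depth was inferred from steps between low FPKM values with GENCODE lengths (another build), assuming fragments of 200 bases; it is approximate, so no interval was computed. Same-numbered libraries deviated together (r = 0.814, 0.595 and 0.381 over tested genes), so the numbers were taken to pair samples; a fit with that block was run beside the first. The fit without the block counts the spread between numbers as error. Alternatives covered the pseudocount, filter, scaling, variance model, block and left-out libraries.

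The members and lists were chosen with earlier results of these data known. Named genes were the members, receptors and partners, up to 4 genes of smallest p per other list, leading cell markers and the 3 nearest genes of 4 members. Promoters came from RefSeq (GRCm38.p6); Thbs1 had no entry used here.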

Additional observations from a re-analysis of the deposited data

How the results depend on the processing

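With the block and pair 2 left out, 2 members passed, both higher in KO (Thbs1 and Vegfa), in a fit that called 0.836% of all tested genes higher. Under the other alternatives run, the replicate block with all libraries and each left-out library among them, 0 members passed. Thbs1, Vegfa, Srgn and Mmrn1 kept their direction in every alternative run, but without 1 library Thbs1 ran from 0.24 to 0.70, Vegfa from 0.41 to 0.62, Srgn from -0.49 to -0.05 and Mmrn1 from -0.76 to -0.11. Rescaling to a common FPKM sum, with or without the block, gave 8 members higher in KO, and Pf4 (0.04), Ppbp (0.14) and Selp (0.03) turned sign. So did Pf4 with quantile normalization (0.05, also with the block) and Ppbp with a sum taken without Rpph1, Rmrp and ribosomal protein genes (0.04). With the replicate block, Pf4 was 0.07 without pair 3, Ppbp 0.23 and Selp 0.17 without pair 2, and Tgfb1 -0.21 without pair 1. Leaving out 1 library at a time moved Pf4 from -0.62 to 0.26, Ppbp from -0.70 to 0.59, Selp from -0.50 to 0.10, F5 from -0.02 to 0.56, F13a1 from -0.08 to 0.83 and Tgfb1 from -0.62 to 0.55. Such a fit leaves 1 number without its partner. With the block and a whole pair left out, Pf4 ran from -0.26 to 0.07, Ppbp from -0.27 to 0.23 and Selp from -0.48 to 0.17. In those fits F5 ran from 0.00 to 0.55, F13a1 from 0.24 to 0.57 and Tgfb1 from -0.21 to 0.19. The part of the missing partner in the first ranges was not tested. The members' median was moved to 0.18 by the common sum and 0.07 by quantile normalization. Over all genes, limma called 1 gene higher and 1 lower. Without the filter 0 were higher, and without 1 library 0 to 1 higher and 1 to 2 lower. With the replicate block 2 were higher, as with quantile normalization and the block, and 54 higher and 12 lower with the block and a common sum. With the block, 9 and 27 were called without pair 1, 94 and 48 without pair 2, and 68 and 50 without pair 3. Depth limits Selp, F5 and Mmrn1 most.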
